A study of Mus musculus with 6 samples.

Results

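The variable (Trbv) and joining (Trbj) gene segments of the T cell receptor beta chain were followed in CD8 T cells sorted from the B16-OVA tumors of mice and from the nodes that drain them. Every gene whose symbol starts with Trbv or Trbj was taken, which gave 35 Trbv and 14 Trbj genes, 49 of the 32285 genes in the count tables. In the 2 tumors, these counts were set beside the V and J labels of the assembled beta chain (TRB) contigs of the same cells. The mice were harvested at day 12 after engraftment of B16-OVA, a mouse melanoma line that makes ovalbumin. Control mice were CD8-Cre-Rosa26Tomato, and CD8-IFNgRKO mice were CD8-Cre-Rosa26Tomato-IFNgR1flox/flox. In the latter, the CD8-Cre deletes the floxed receptor chain gene. All mice thus carried Cre and the Tomato reporter. Cells were sorted as CD45, CD3, CD8 and Tomato positive, and the 3 mice of a genotype are represented by 1 library per tissue. There was thus no replicate library of any condition, no test between genotypes or tissues was made, and no map from cells to mice was used here.

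During T cell development 1 V, 1 D and 1 J segment of the beta locus are joined by the RAG recombinase, bases are trimmed and added at the joints, and the joined segment is spliced to 1 of 2 constant genes. The V segment encodes the first loops of the receptor that touch the peptide-MHC complex (CDR1 and CDR2), and the V-D-J joint encodes the most variable loop, CDR3. The joint is passed to all daughters of a cell, so that cells with the same CDR3 nucleotides can be counted as 1 clone, and the V usage of a tissue can be counted by cell or by clone. Most V segments lie upstream of the D, J and constant genes, and Trbv31 lies downstream of them in the opposite orientation.

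All 49 genes had a RefSeq entry on chromosome 6 of GRCm38.p6. The Trbv genes other than Trbv31 ran from Trbv1 at chr6:40891296-40891885 to Trbv30 at chr6:41281376-41281990, followed by the first J cluster (Trbj1-1 at chr6:41533864-41533911), Trbc1, the second J cluster (Trbj2-1 at chr6:41542754-41542803) and Trbc2. Trbv31 was at chr6:41557693-41558371. RefSeq calls 13 of the 35 Trbv genes pseudogenes. In the 4 RNA libraries, 8 Trbv genes were at 0 UMIs (unique molecular identifiers, one per captured RNA molecule), namely Trbv6, Trbv7, Trbv8, Trbv9, Trbv11, Trbv18, Trbv25 and Trbv27, and all 8 are among those pseudogenes. Trbj1-7 and Trbj2-6 were at 0 too, as were the D segments Trbd1 and Trbd2, which are only 12 and 14 bases long. In the other direction, Trbv29 has the RefSeq class of a pseudogene, but was the V of 57 cells in 25 clones of the control tumor and 189 cells in 37 clones of the CD8-IFNgRKO tumor, all with contigs called productive.

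After filtering, 7103 cells of the control tumor, 8636 of the CD8-IFNgRKO tumor, 6641 of the control LN (lymph node) and 6731 of the CD8-IFNgRKO LN were kept, with 28841136 to 93995655 UMIs per library. Median depth was 6308 and 9402.5 UMIs per cell in the tumors and 4051 and 3863 in the LN. Any pair of libraries shared 51 to 82 cell barcodes. *Ifngr1*, the floxed gene, stood at 718 CPM (UMIs of the gene scaled to the total of the library) in the control tumor and 237 in the CD8-IFNgRKO tumor, and at 182 and 137 CPM in the LN, counted over the whole gene. The defining CD8 T cell genes were present in every library, but Cd8a and Cd8b1 among them had been required of every kept cell. Gamma-delta T cell genes summed to 2.01 to 27.6 CPM, and Cd4 stood at 4.22 to 18.4 CPM. Genes of macrophages and dendritic cells summed to 10.96 to 91.1 CPM and B cell genes to 0.437 to 22.2 CPM, against 5522 to 8661 CPM for the CD8 T cell list, and 2 to 19 cells per library held 3 or more of these markers.

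The CDR3 sequences of the 5 largest TRB clones of each tumor are shown because these 10 clones set most of the V and J usage described below. Bases in capitals lie between the start that most CDR3 of that V share and the end that most CDR3 of that J share, and so mark the joint of each clone. Sequences are read from the deposited contigs, 5′ to 3′.
Control clone 1, Trbv12-1 and Trbj2-4: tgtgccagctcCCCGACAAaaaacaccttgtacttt
Control clone 2, Trbv14 and Trbj1-1: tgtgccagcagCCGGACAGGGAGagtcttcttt
Control clone 3, Trbv15 and Trbj2-1: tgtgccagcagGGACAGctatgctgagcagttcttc
Control clone 4, Trbv16 and Trbj2-5: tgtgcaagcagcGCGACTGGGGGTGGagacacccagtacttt
Control clone 5, Trbv16 and Trbj2-7: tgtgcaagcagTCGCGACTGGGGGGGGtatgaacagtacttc
CD8-IFNgRKO clone 1, Trbv14 and Trbj1-6: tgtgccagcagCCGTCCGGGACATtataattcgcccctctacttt
CD8-IFNgRKO clone 2, Trbv13-3 and Trbj1-1: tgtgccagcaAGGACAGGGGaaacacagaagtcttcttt
CD8-IFNgRKO clone 3, Trbv13-2 and Trbj2-5: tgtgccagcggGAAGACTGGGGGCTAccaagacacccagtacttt
CD8-IFNgRKO clone 4, Trbv13-3 and Trbj1-1: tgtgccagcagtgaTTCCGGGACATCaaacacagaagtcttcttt
CD8-IFNgRKO clone 5, Trbv13-1 and Trbj1-3: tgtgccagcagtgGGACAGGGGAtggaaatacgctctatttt

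The clones of Trbv14 were the second largest in the control tumor and the largest in the CD8-IFNgRKO tumor, but their joints differed, as did their J segments (Trbj1-1 and Trbj1-6) and the lengths of their CDR3 (33 and 45 bases). Among 569 and 1002 distinct nucleotide CDR3 in the contigs of all barcodes, 1 was found in both tumors, in 1 cell each, and it is shown as the only such sequence. Among the cells kept for the clone counts, 0 nucleotide CDR3 were shared. Translated to amino acids, 10 CDR3 were found in both tumors, of 567 in the control and 991 in the CD8-IFNgRKO tumor. The shared nucleotide CDR3 was joined to TRBV26 in the control tumor and to TRBV13-3 in the CD8-IFNgRKO tumor, with Trbj2-1 in both.
Shared CDR3, Trbj2-1: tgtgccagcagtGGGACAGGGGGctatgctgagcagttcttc

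The LN libraries were used to ask how the V genes are used in CD8 T cells outside the tumor. A cell was given the V gene that held more than 50% of its Trbv UMIs, where it had at least 2 of them. This named the V of 5640 cells of the control LN and 5938 of the CD8-IFNgRKO LN, 84.9% and 88.2% of the cells. V usage was broad. Trbv13-2 led in both, with 8.97% of cells in the control (exact 95% binomial interval 8.24 to 9.75, here and below for counting error only) and 8.05% (7.37 to 8.77) in the CD8-IFNgRKO LN. Trbv16 followed in the control with 7.64% (6.96 to 8.37) and stood at 7.86% (7.19 to 8.58) in the CD8-IFNgRKO LN, and Trbv12-1 at 7.34% (6.67 to 8.05) and 7.48% (6.82 to 8.18). Neighbours in this order had overlapping intervals. Lowest among the V genes given to cells in both libraries were Trbv24 with 0.0177% and 0.185%, Trbv30 with 0.266% and 0.421% and Trbv23 with 0.621% and 0.522%. Trbv5, Trbv20, Trbv26 and Trbv31 lay between, at 2.36% to 4.31%.

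Between the genotypes, no V gene differed by more than 1.01 percentage points of LN cells, which was Trbv3, with 6.63% (5.996 to 7.31) in the control and 7.65% (6.98 to 8.35) in the CD8-IFNgRKO LN. Next among those higher in the CD8-IFNgRKO LN was Trbv2, with 1.95% (1.61 to 2.35) and 2.56% (2.17 to 2.99), and Trbv13-2 was the furthest in the other direction. The intervals overlapped for all 3. The distance between the 2 LN, defined as the share of cells that would have to change V gene to turn one profile into the other (50% of the summed absolute differences of shares), was 3.58%. The inverse of the summed squared shares, which gives the number of equally used V genes that would be as even, was 16.8 in the control LN and 17.0 in the CD8-IFNgRKO LN.

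In the tumors a few V genes held most cells, and apart from Trbv14 they were not the same ones in the 2 genotypes. In the control tumor, 5778 cells were given a V gene, and Trbv14 held 24.96% (23.8 to 26.1), Trbv12-1 held 23.9% (22.8 to 25.1), Trbv15 held 18.7% (17.7 to 19.7) and Trbv16 held 12.5% (11.7 to 13.4). In the CD8-IFNgRKO tumor, with 7488 cells, Trbv14 held 24.8% (23.8 to 25.8), Trbv13-3 held 23.6% (22.7 to 24.6), Trbv13-2 held 19.3% (18.4 to 20.2) and Trbv13-1 held 8.36% (7.74 to 9.01). Trbv14, with 4.24% and 3.94% of cells in the LN, thus stood at about the same share in both tumors and overlapped there. The other leading genes of 1 tumor were low in the other. Trbv12-1, Trbv15 and Trbv16 held 3.74%, 1.64% and 0.721% of cells in the CD8-IFNgRKO tumor. Trbv13-3, Trbv13-2 and Trbv13-1 held 3.36%, 2.86% and 0.675% in the control tumor.

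**Figure D1:**
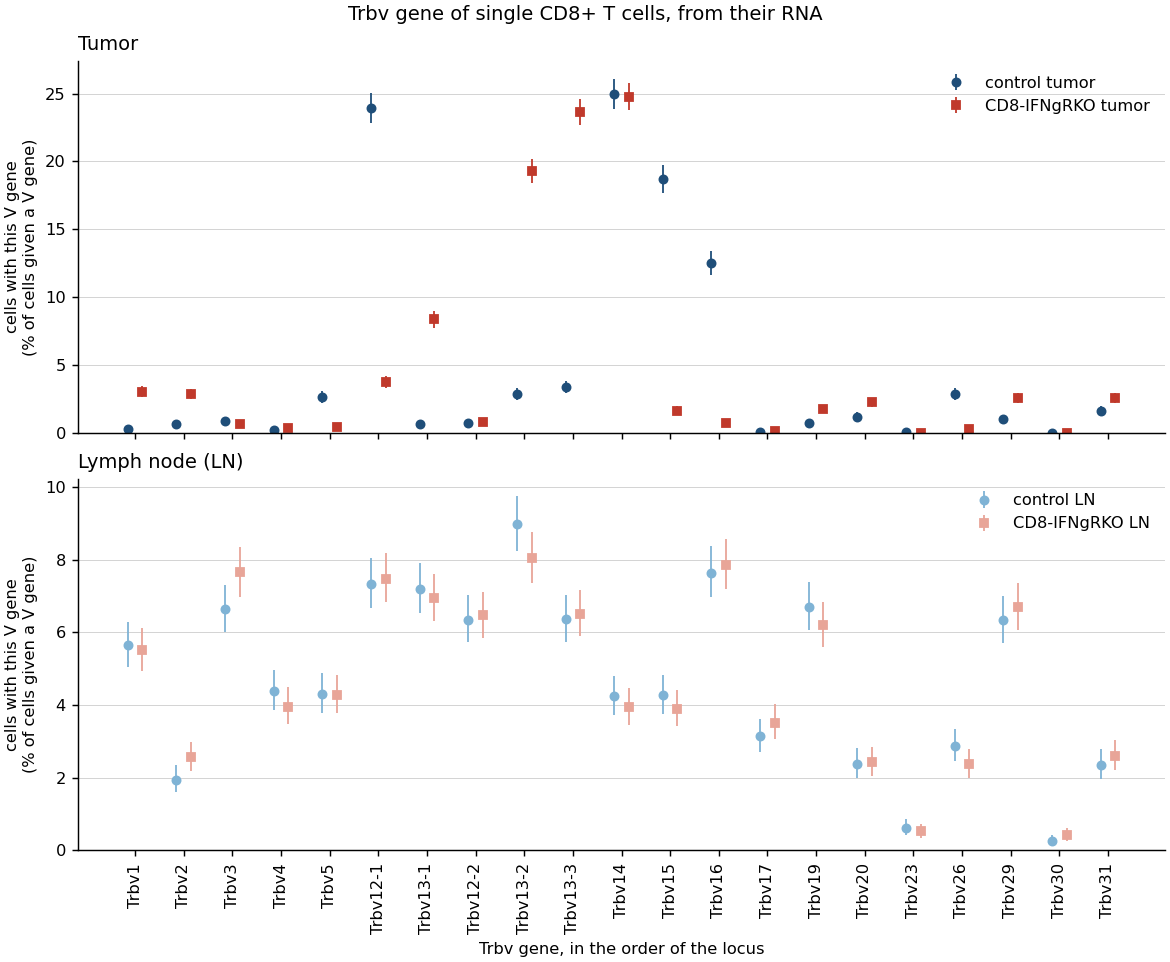
Share of cells (percent of cells given a V gene) by Trbv gene in the order of the locus, from the RNA of the 4 libraries; points are shares, bars exact 95% binomial intervals, with tumors above and LN below on different vertical scales. The LN points of the 2 genotypes lie within 1.01 points of each other. Trbv14 is highest in both tumors, followed by Trbv12-1, Trbv15 and Trbv16 in the control and Trbv13-3, Trbv13-2 and Trbv13-1 in the CD8-IFNgRKO library.

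Several V genes that were common in the LN were scarce in both tumors. Trbv3 held 6.63% and 7.65% of LN cells but 0.865% and 0.668% of tumor cells in the control and CD8-IFNgRKO mice. Trbv12-2 held 6.35% and 6.47% in the LN, and 0.710% and 0.801% in the tumors. Trbv17, with 3.14% and 3.52% in the LN, held 0.104% and 0.174% of tumor cells. Trbv19 held 6.70% and 6.20% in the LN, and 0.727% and 1.74% in the tumors. The number of equally used V genes was 5.73 in the control tumor and 5.98 in the CD8-IFNgRKO tumor. The distance between the tumors was 54.2%, close to that of each tumor from the LN of its genotype, 56.6% for the control and 50.9% for the CD8-IFNgRKO mice.

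Pooled over all cells of a library, these differences were set beside those of all other genes. The measure was the log2 ratio of pooled CPM plus 1 CPM, and a gene was compared where 1 of the libraries had 10 CPM or more and the pair held 20 UMIs. Comparisons within a tissue and within a genotype share libraries. Between the tumors, 11 of the 18 Trbv genes compared were past 2-fold (log2 ratio beyond 1), while 2.05% of all genes compared were. Between the LN, 0 of 19 were, and 0.0535% of all genes. Between tumor and LN, 14 of 20 Trbv genes were past 2-fold in the control, where 26.1% of all genes were, and 14 of 19 in the CD8-IFNgRKO mice, where 29.1% were. The median absolute log2 ratio of the Trbv genes between the tumors was 1.60, against 0.19 over all genes, and between the LN 0.10 against 0.07. No Trbj gene reached the minimum level in any comparison. With 1 library per condition these counts describe the libraries only.

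Ratios between the tumors had both signs, and those furthest out on either side are given. Trbv16 stood at 6.52 CPM in the CD8-IFNgRKO tumor and 201 CPM in the control (log2 ratio -4.74), and Trbv15 at 31.1 and 749 CPM (-4.54). Trbv26, at 1.99 and 36.2 CPM (-3.64), was next on the lower side. Trbv13-1 stood at 118 and 9.08 CPM (3.56), and Trbv1 at 47.7 and 3.23 CPM (3.53). The constant genes, which every beta chain carries, differed less. Trbc2 stood at 651 and 533 CPM (log2 ratio 0.29) and Trbc1 at 149 and 201 CPM (-0.43), and the alpha constant gene Trac at 234 and 260 CPM (-0.15). Of the recombination genes, Rag1, Rag2 and Dntt were at 0 UMIs in both tumors. Dntt, the enzyme that adds untemplated bases at the joints, had 81 UMIs in the control LN and 94 in the CD8-IFNgRKO LN. The CD3 chains Cd3d, Cd3e and Cd3g stood at 1410, 1705 and 2118 CPM in the control tumor and 1081, 1268 and 1588 CPM in the CD8-IFNgRKO tumor.

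The contigs show how many clones lie behind these shares. A TRB contig was found for 4657 kept cells of the control tumor and 6382 of the CD8-IFNgRKO tumor, 65.6% and 73.9% of the cells, with a median of 14 and 17 UMIs behind it. Clones were defined by the CDR3 nucleotides of the TRB contig with most UMIs in a cell. There were 285 clones in the control and 492 in the CD8-IFNgRKO tumor, of which 212 and 425 were single cells, and the 3 largest held 60.4% and 55.6% of the cells. The control clone of Trbv12-1 and Trbj2-4 had 1177 cells, 25.3% of cells with a TRB contig (24.0 to 26.5). The control clone of Trbv14 and Trbj1-1 had 1064 cells (22.8%, 21.6 to 24.1), and that of Trbv15 and Trbj2-1 had 571 (12.3%, 11.3 to 13.2). In the CD8-IFNgRKO tumor the clone of Trbv14 and Trbj1-6 had 1519 cells (23.8%, 22.8 to 24.9), that of Trbv13-3 and Trbj1-1 had 1317 (20.6%, 19.6 to 21.7), and that of Trbv13-2 and Trbj2-5 had 714 (11.2%, 10.4 to 12.0). The alpha chain was not part of the definition. Counting only the alpha chain with most UMIs in each cell, this last clone held several, the most frequent in 315 and 255 cells.

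The leading V genes of the tumors rested on 1 clone each, or on a few. In the control tumor 1 clone held 99.7% of Trbv15 cells, 98.3% of Trbv14 cells and 84.6% of Trbv12-1 cells. Trbv16 was spread over more clones, and its largest held 43.0% of its 533 cells. In the CD8-IFNgRKO tumor 1 clone held 99.5% of Trbv14 cells, 82.2% of Trbv13-3 cells and 64.8% of Trbv13-2 cells, and the 549 Trbv13-1 cells had a largest clone of 236 cells. At the other end, Trbv1 in the control tumor was the V of 14 cells in 14 clones. In the CD8-IFNgRKO tumor Trbv12-2 was the V of 57 cells in 48 clones, and Trbv3 of 50 cells in 41 clones.

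Counted by clone, V usage was broad in both tumors. Trbv13-1 led in the control with 28 of 285 clones, 9.82% (6.63 to 13.9), followed by Trbv29 with 25 clones, 8.77% (5.76 to 12.7), and Trbv16 with 24 clones, 8.42% (5.47 to 12.3). Trbv12-2 led in the CD8-IFNgRKO tumor with 48 of 492 clones, 9.76% (7.28 to 12.7), followed by Trbv3 with 41 clones, 8.33% (6.05 to 11.1). Trbv14, at 23.2% and 23.9% of contig cells, was the V of 10 and 7 clones, 3.51% (1.70 to 6.36) and 1.42% (0.574 to 2.91). Trbv15 was the V of 3 clones in the control, 1.05% (0.218 to 3.05), and of 27 in the CD8-IFNgRKO tumor, 5.49% (3.65 to 7.88), so that by clone it was lower in the control, while by cell it was higher there. The largest difference by clone was that of Trbv12-2, with 15 clones in the control, 5.26% (2.98 to 8.53), which was 4.49 points below the CD8-IFNgRKO tumor, with overlapping intervals. That of Trbv15 was next with 4.44 points, and it was the only V gene of the 21 compared whose intervals did not overlap. Of the cells with Trbv15 by RNA, 60.5% in the control and 77.2% in the CD8-IFNgRKO tumor had a TRB contig of any V. How this bears on the number of Trbv15 clones was not tested.

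**Figure D2:**
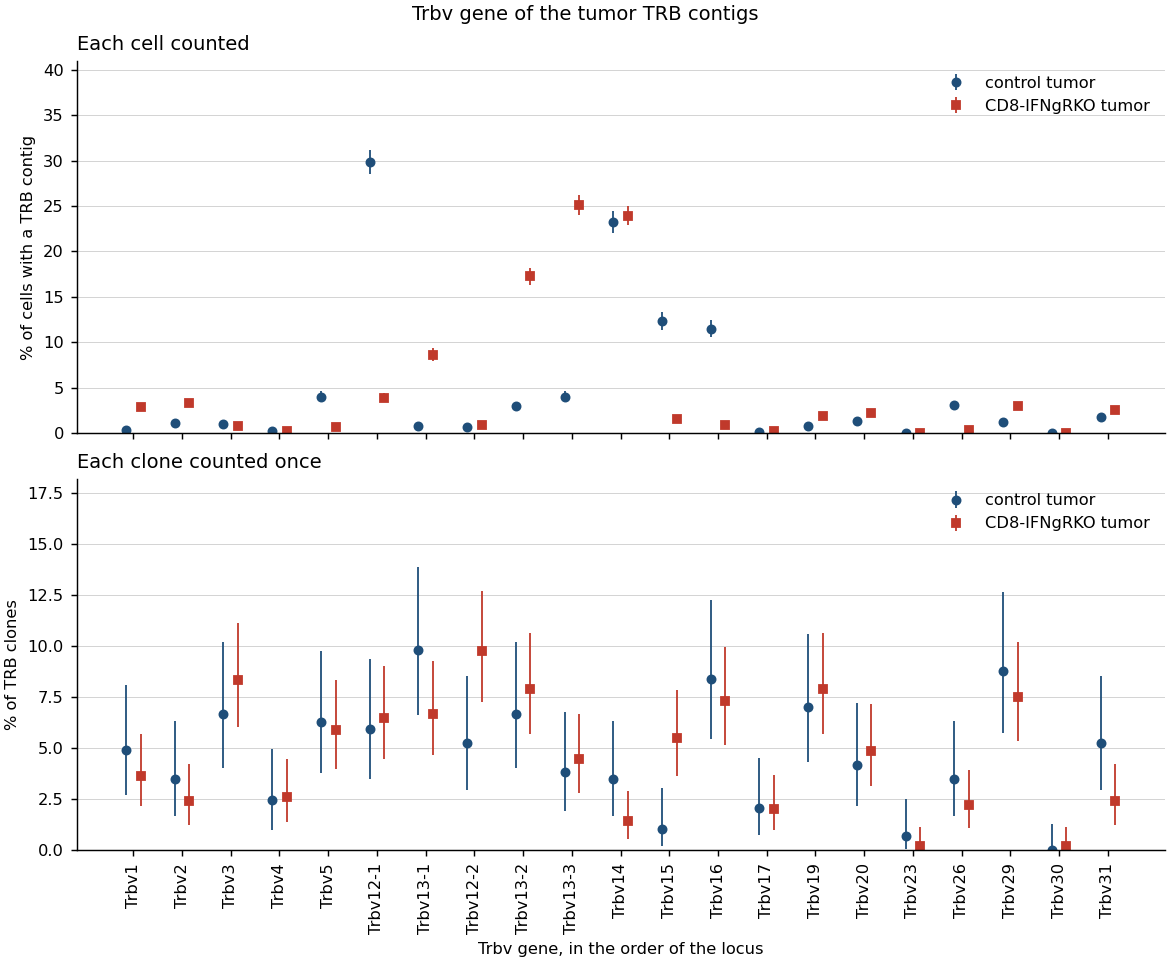
Share of cells with a TRB contig (above) and of TRB clones (below), in percent, by Trbv gene in the order of the locus for the control and CD8-IFNgRKO tumors; bars are exact 95% binomial intervals. The peaks of the upper panel, such as Trbv14 with 23.2% and 23.9% of cells, are absent from the lower one, where no V gene exceeds 9.82% of clones.

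The distance between the tumors was 53.7% by contig cells and 15.0% by clones, and the number of equally used V genes was 5.63 and 6.11 by cells and 16.2 and 15.6 by clones. The V usage of tumor clones was nearer to that of LN cells, at a distance of 15.2% in the control and 12.2% in the CD8-IFNgRKO mice, than that of tumor cells. With 285 and 492 clones counting error is larger for clones than for cells, so that distances by clone and by cell are not on the same footing. Without the 20 largest clones of each tumor the distance by cells was 26.2%.

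RNA and contigs were then compared in the same cells. In 4419 cells of the control tumor and 6150 of the CD8-IFNgRKO tumor with both, the V gene was the same in 97.7% (97.2 to 98.1) and 99.6% (99.4 to 99.7). These values depend on 2 contig labels that were renamed after the RNA of the same cells was seen, and with the labels as deposited 94.6% and 82.1% were the same. The label TRBV10 was given to 22 cells with an RNA call, and all 22 had Trbv4 as their RNA V gene, while Trbv10 is a RefSeq pseudogene with at most 5 UMIs per library. The joint label TRBV12-2+TRBV13-2 was given to 1191 such cells, and 1188 had Trbv13-2. The CDR1 of these contigs, shown because it tells the 2 V genes apart, was that of TRBV13-2 in all 1673 of them, and capitals mark the bases that differ from TRBV13-2.
TRBV12-2+TRBV13-2, CDR1: aataaccacaacaac
TRBV13-2, CDR1: aataaccacaacaac
TRBV12-2, CDR1: TCtGGAcaTCTcTCT
TRBV13-1, CDR1: aataGccacaacTac
TRBV13-3, CDR1: aataaccaTGacTaT
TRBV13-1 and TRBV13-3 differed from TRBV13-2 at 2 and 4 of the 15 bases, and TRBV12-2 at 11.

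Of the 101 cells of the control tumor whose RNA named another V gene than their contig, 83 belonged to its largest clone, with Trbv12-1 in the contig. RNA of V genes other than a clone's own was then counted in each clone. In kept cells with a TRB contig, the contig's own V gene held 89.96% of the Trbv UMIs in the control and 90.3% in the CD8-IFNgRKO tumor. The remainder was not spread evenly over clones. There were 38 clones with at least 30 cells, 19 in each tumor, and in 25 of them at least 20% of the cells held RNA of some other Trbv gene, in 40 combinations of clone and gene. The cut of 20% took no account of the share of cells outside the clone with RNA of the same gene, leaving out cells with that gene as their own V. Some combinations lay below that share, such as Trbv13-2 in control clone 3, with 21.7% against 27.2%. Others lay far above it, such as Trbv15 in control clone 1, with 87.4% against 3.78%. Among the 40 combinations, the other V gene lay 5′ of the clone's own in the locus in 13 of 23 in the control and 14 of 17 in the CD8-IFNgRKO tumor. Most of these 5′ combinations in either tumor were of Trbv13-2 or Trbv12-2, which were found in many clones. How many V genes lie 5′ of each clone's own was not taken into account, so that the counts do not show a preference for either side. By UMIs, over all cells with a contig, 31.9% of the RNA of other V genes lay 5′ in the control and 76.9% in the CD8-IFNgRKO tumor. Large clones weigh heavily in these pooled shares. Control clone 1 (1177 cells) had a mean of 2.87 UMIs of Trbv15, which lies 3′ of its own Trbv12-1. CD8-IFNgRKO clone 2 (1317 cells) had 2.13 UMIs of Trbv13-2, 5′ of its Trbv13-3, and 1.33 of Trbv14, 3′ of it. The difference between the tumors was not tested.

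Some clones carried a V gene that nearly no other clone had. Trbv15 RNA was found in 87.4% (85.4 to 89.3) of the cells of control clone 1, with a mean of 2.87 UMIs per cell beside 8.29 of its own Trbv12-1. It was also found in 88.6% (73.3 to 96.8) of the 35 cells of a control clone of Trbv13-3 and Trbj1-5, at 4.34 UMIs beside 7.66. The median over the other clones of the control tumor was 0% of cells in both cases, leaving out clones whose own V is Trbv15. Trbv24, which is the label of no contig, was found in 45.5% (41.4 to 49.7) of control clone 3 and 45.0% (38.4 to 51.7) of control clone 4, with a median of 0% over the other clones. Trbv20 was found in 41.5% (28.1 to 55.9) of a 53-cell control clone of Trbv13-3 and Trbj1-1. It was found in at most 0.175% of any other clone of that tumor, leaving out the clone whose own V is Trbv20. Trbv31, which lies downstream of the constant genes, was found in 27.6% (20.01 to 36.2) of the 127 cells of the control clone of Trbv12-1 and Trbj1-2, and at most 1.82% of any other in that tumor.

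The same was seen in the CD8-IFNgRKO tumor. Trbv14 RNA was found in 68.3% (65.7 to 70.8) of the cells of clone 2, whose own V is Trbv13-3, at a mean of 1.33 UMIs beside 12.7. The highest share in the other clones of that tumor was 2.17%, leaving out clone 1, whose own V is Trbv14. Trbv4 was found in 64.0% (57.4 to 70.3) of the 228 cells of the clone of Trbv13-1 and Trbj2-4, and 40.5% (24.8 to 57.9) of a 37-cell clone of Trbv20, with a median of 0% over the others. Trbv12-1 was found in 58.1% (51.9 to 64.1) of clone 4 and 45.0% (41.3 to 48.7) of clone 3. The CD8-IFNgRKO clone 5, of Trbv13-1 and Trbj1-3, had 21.2 UMIs of its own V per cell and 0.0551 of all others together.

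Trbv13-2 and Trbv12-2, which neighbour each other in the locus, were found in many clones. Among the 20 clones whose own V lies 3′ of Trbv13-2, the share of cells with Trbv13-2 RNA ran from 0.654% to 78.9%, with a median of 28.6%, and 15 clones were at 10% or more. Among the 13 clones whose V lies 5′ of it, it ran from 0% to 40.9%, with a median of 0.439%, and 2 clones were at 10% or more. For Trbv12-2 the shares ran from 0% to 47.1% over 25 clones on the 3′ side, with a median of 12.7% and 16 at 10% or more. Over 13 clones on the 5′ side they ran from 0% to 53.1%, with a median of 0% and 3 at 10% or more. For Trbv24, Trbv15 and Trbv14, 4 of 35, 2 of 25 and 1 of 23 clones on the 5′ side were at 10% or more. On the 3′ side it was 0 of 3, 0 of 11 and 0 of 13. For Trbv12-1 it was 3 of 28 on the 3′ side and 1 of 5 on the 5′ side. The lowest Trbv13-2 share on the 3′ side was that of the 153-cell clone of Trbv29 in the CD8-IFNgRKO tumor. The highest was that of CD8-IFNgRKO clone 2, with 78.9% (76.6 to 81.1) and 2.13 UMIs per cell. These clones are members of 2 libraries and not replicates.

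**Figure D3:**
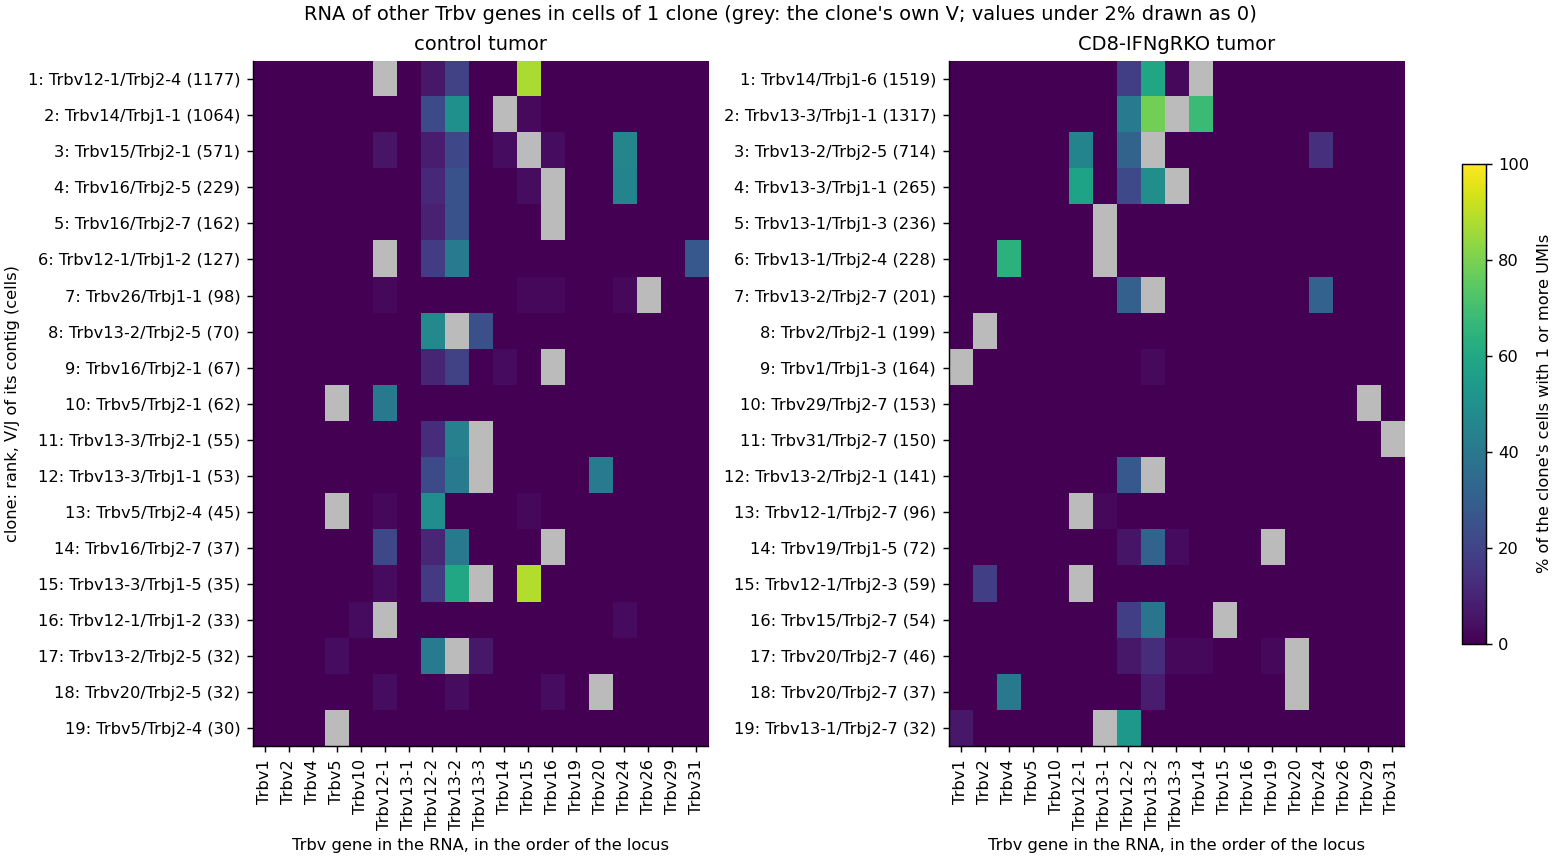
Percent of a clone's cells with 1 or more UMIs of each Trbv gene (columns, in the order of the locus) for the 38 clones with at least 30 cells (rows, with rank, V, J and number of cells); grey marks the clone's own V, and shares under 2% are drawn as 0. A band at Trbv12-2 and Trbv13-2 crosses many clones, while single bright cells, such as Trbv15 in control clone 1 (87.4%) and Trbv14 in CD8-IFNgRKO clone 2 (68.3%), stand apart from it.

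The second V gene also divided cells that share a CDR3. In each cell only the alpha chain contig with most UMIs was taken, and a further alpha chain of the same cell was not counted. By this rule the 714 cells of CD8-IFNgRKO clone 3 carried 3 frequent alpha chains. Trbv24 RNA was found in 0.317% and 0.784% of the 315 and 255 cells with the first and second of these, and in 67.7% (59.0 to 75.5) of the 133 cells with the third. Trbv12-1 showed the reverse, with 58.4% (52.8 to 63.9) and 52.9% (46.6 to 59.2) against 0.752% (0.0190 to 4.12). The third alpha chain was also the most frequent one in clone 7, of Trbv13-2 and Trbj2-7, where 71.6% (61.0 to 80.7) of 88 cells with it held Trbv24. Of the 199 barcodes with 2 TRB contigs in the CD8-IFNgRKO tumor, 114 held the same pair of CDR3, 167 held that of clone 3, and 85.9% had the same V gene in both contigs. In the control tumor 104 barcodes had 2 TRB contigs, 67 of them with the CDR3 of clone 1. The second contig had a median of 3 UMIs in both tumors, against 11 and 20 for the first.

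J usage was then described from the contigs, since the Trbj genes, about 50 bases long, were barely counted in the RNA. The 4 libraries held 384, 464, 198 and 206 Trbj UMIs, beside 50870 to 146961 Trbv UMIs. Where a cell with a contig had a Trbj UMI, the J was that of the contig in 102 of 194 cells of the control tumor (52.6%, 45.3 to 59.8) and 186 of 276 of the CD8-IFNgRKO tumor (67.4%, 61.5 to 72.9). Trbj2-5, for example, was the J of 461 control cells by contig, and had 2 UMIs. Levels of Trbj RNA were therefore not read as usage.

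By cell, J usage followed the largest clones. Trbj2-4, Trbj1-1 and Trbj2-1 led in the control tumor with 28.3% (27.1 to 29.7), 28.0% (26.7 to 29.3) and 17.1% (16.04 to 18.2) of cells. Trbj1-1, Trbj1-6 and Trbj2-7 led in the CD8-IFNgRKO tumor with 26.0% (24.97 to 27.1), 24.0% (23.0 to 25.1) and 15.7% (14.8 to 16.6). Trbj1-6 held 0.687% of control cells, and 1519 of its 1533 CD8-IFNgRKO cells were clone 1. Trbj1-1 stood near the same share in both tumors, and its largest clones there, of Trbv14 and of Trbv13-3, held 81.6% and 79.2% of its cells.

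By clone the same J genes led in both tumors. Trbj2-7 led with 24.9% (19.9997 to 30.4) of control and 26.4% (22.6 to 30.6) of CD8-IFNgRKO clones, followed by Trbj2-5 with 15.1% (11.1 to 19.8) and 12.6% (9.80 to 15.9), and Trbj2-1 with 10.2% (6.92 to 14.3) and 12.2% (9.44 to 15.4). In the control Trbj1-1 had as many clones as Trbj2-1. The distance between the tumors was 42.0% by cells and 7.14% by clones, and no J gene differed by more than 2.49 points of clones. The largest such difference was that of Trbj2-5, and its intervals overlapped.

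**Figure D4:**
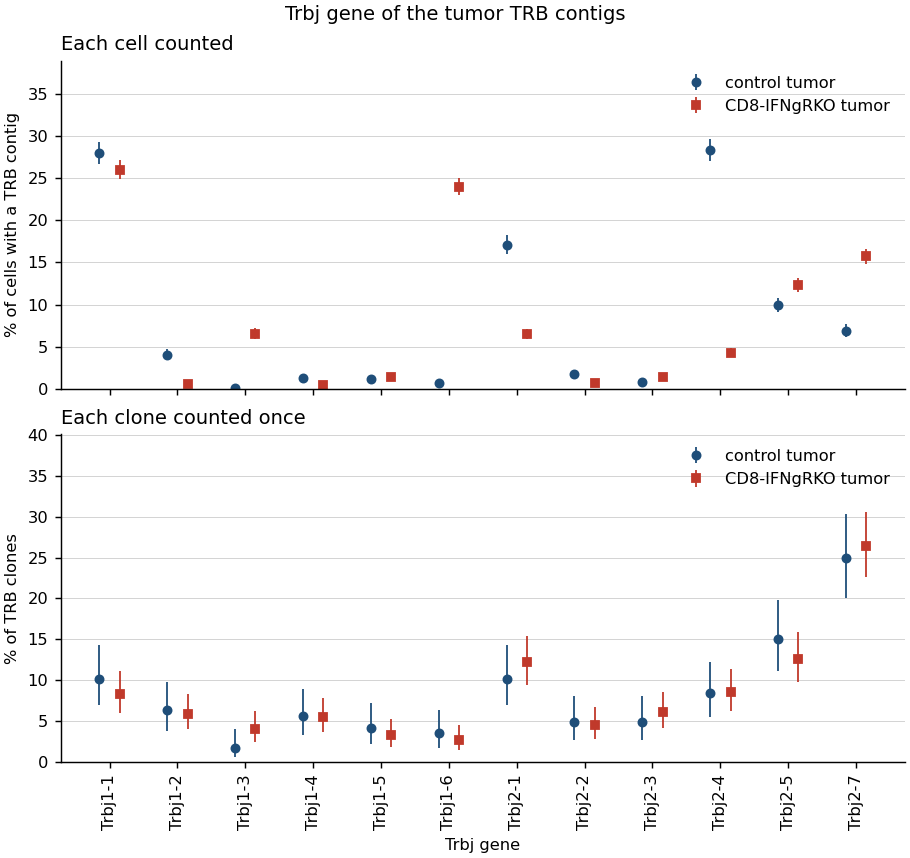
Share of cells with a TRB contig (above) and of TRB clones (below), in percent, by Trbj gene for the control and CD8-IFNgRKO tumors; bars are exact 95% binomial intervals. By cell, Trbj1-6 (0.687% and 24.0%) and Trbj2-4 (28.3% and 4.28%) stand far apart, while by clone the 2 tumors lie within 2.49 points for every J gene.

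The first J cluster (Trbj1) held 35.2% of control and 59.1% of CD8-IFNgRKO cells, but 31.6% (26.2 to 37.3) and 29.7% (25.7 to 33.9) of clones. Every contig with a first-cluster J and a constant gene label had Trbc1 (1627 and 3762 cells), and every one with a second-cluster J had Trbc2 (3011 and 2600 cells). In the locus the second cluster lies 3′ of Trbc1, and Trbd2 lies 3′ of the first J cluster. It was labelled in 1 of 90 first-cluster clones of the control and 0 of 146 of the CD8-IFNgRKO tumor, and in 29 of 195 and 48 of 346 second-cluster clones, while most clones had no D label. The letters of the joint were therefore searched on the coding strand of the CDR3 for GACAG and for GACTG, which no clone held together. GACAG was found in 36.7% and 32.9% of first-cluster clones and 15.4% and 16.8% of second-cluster clones. GACTG was found in 0 of 90 (at most 4.02%) and 1 of 146 first-cluster clones (0.685%), and in 24.6% (18.7 to 31.3) and 25.4% (20.9 to 30.4) of second-cluster clones. Among the CDR3 printed above, GACTG is in those of control clones 4 and 5 and CD8-IFNgRKO clone 3, all with a second-cluster J.

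In the RNA Trbc2 exceeded Trbc1 in the mean of all 38 clones with at least 30 cells, that is in the 26 with Trbc2 in their contigs and also in the 12 with Trbc1. In control clone 2, with Trbc1 in its contigs, the mean was 4.39 UMIs of Trbc1 and 5.52 of Trbc2 per cell. CD8-IFNgRKO clone 1, also of Trbc1, had 2.38 and 9.39. Control clone 1, with Trbc2, had 0.0238 and 1.24. Trbc1 RNA was at 0 in 8 of the 26 clones with Trbc2 and reached 4.94 UMIs per cell in another, the CD8-IFNgRKO clone of Trbv13-2 and Trbj2-1. The constant genes are near-identical copies, and how reads were divided between them was not tested.

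V and J were combined widely. The 777 clones of both tumors used 194 of the 252 pairs that their V and J genes allow. Trbv16 with Trbj2-7 was the most frequent pair, with 8 control and 12 CD8-IFNgRKO clones, where 15.5 would be reached if V and J were drawn independently. Trbv13-2 with Trbj2-5 had 15 clones where 7.84 would be, and Trbv29 with Trbj1-4 had 10 where 3.43 would be. These pairs were picked for their counts and no test was made of them.

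The amount of V RNA in a cell differed between V genes, and UMI shares departed from cell shares. In the control tumor Trbv15 held 33.3% of Trbv UMIs but 18.7% of cells, and Trbv12-1 held 15.2% of UMIs but 23.9% of cells. A single clone each held 99.7% and 84.6% of the contig cells of these V genes there, so that V gene and clone cannot be told apart in that tumor. In the control LN Trbv15 held 7.76% of Trbv UMIs and 4.27% of cells, and Trbv12-1 held 5.10% and 7.34%. In the CD8-IFNgRKO LN these were 6.97% and 3.89% for Trbv15 and 5.06% and 7.48% for Trbv12-1. The level was taken per 10000 UMIs of a cell, over cells given that V gene, for the 16 V genes with at least 20 such cells in every library. Trbv15 was highest in all 4 libraries, with medians of 32.1 and 28.7 in the control and CD8-IFNgRKO tumors and 32.3 and 33.1 in the LN. These cells were given Trbv15 by RNA, whatever their contig. In the control tumor, 562 of 1081 such cells had a Trbv15 contig and 92 had one of another V. How this bears on the median was not tested. Trbv2 was lowest or next to lowest in all 4, with 8.28, 7.75, 7.65 and 7.10. Cells with fewer than 2 Trbv UMIs were given no V gene, which can raise the medians of V genes with few UMIs. Trbv2 had a median of 3 UMIs per cell in both LN. Trbv16 stood at 17.3, 23.8, 18.5 and 20.2. Trbv17, which had too few tumor cells to be among the 16, stood at 29.6 and 32.1 in the LN. Between libraries, Spearman's rho over the 16 genes ran from 0.79 to 0.97, with the highest value between the 2 LN. It is a description across genes, which share libraries and a mapping reference and are not replicates.

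**Figure D5:**
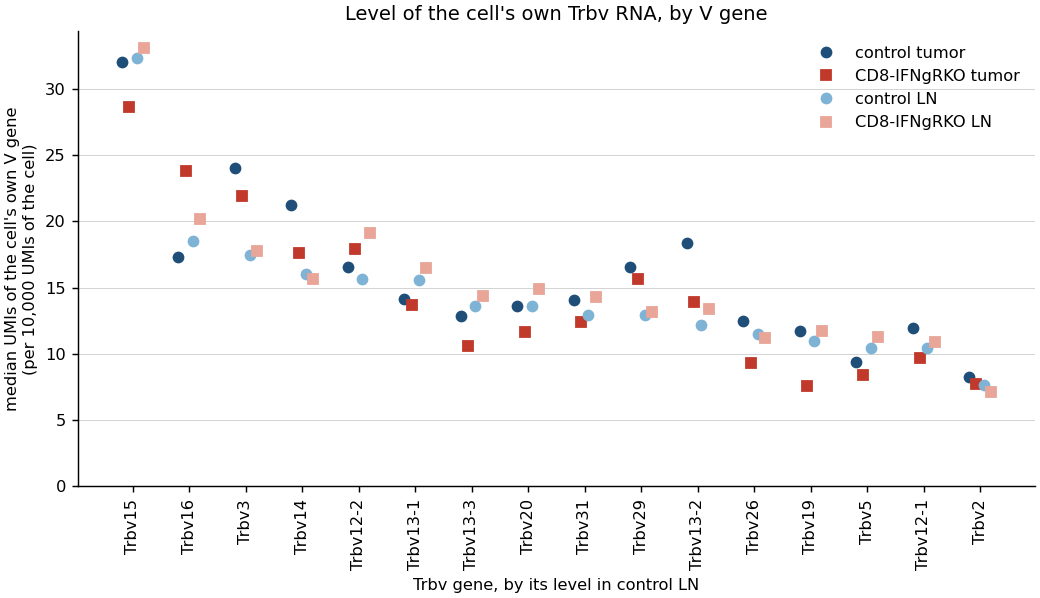
Median UMIs of the V gene given to the cell by its RNA, per 10000 UMIs of the cell. Shown are 16 Trbv genes with at least 20 cells in each of the 4 libraries, ordered by their level in the control LN. Trbv15 lies at 28.7 to 33.1 in all libraries, above the other 15 genes, and Trbv2 at 7.10 to 8.28.

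Among clones with 1 V gene the level still varied. The largest clone of Trbv15 in the control tumor had a median of 46.9 per 10000 UMIs, and that of the CD8-IFNgRKO tumor (54 cells) 28.0. The 2 largest Trbv13-1 clones of the CD8-IFNgRKO tumor had 19.7 and 7.49. The lower of these is the one in which 64.0% of cells held Trbv4 RNA.

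Recovery of a TRB contig also differed by V gene. In the control tumor 60.5% (57.5 to 63.4) of the 1081 cells with Trbv15 by RNA had a TRB contig of any V, against 86.3% (84.4 to 88.1) of 1383 cells with Trbv12-1 and 73.9% (71.6 to 76.2) of 1442 with Trbv14. Of the 654 contigs of these Trbv15 cells, 562 were of Trbv15, which is 51.99% (48.96 to 55.0045) of the 1081 cells, and 92 were of another V, of which 83 lay in control clone 1 with Trbv12-1. Contigs of the Trbv12-1 and Trbv14 cells were all of the same V. Trbv15 held 18.7% of cells by RNA but 12.3% by contig, and Trbv12-1 held 23.9% and 29.9%. The distance between the RNA and contig profiles was 9.28% in the control and 3.54% in the CD8-IFNgRKO tumor, where recovery for the leading V genes ran from 74.6% for Trbv13-2 to 85.6% for Trbv13-3.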

How the data were processed

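Reads were processed by the authors with Cell Ranger 6.0.0 and a mouse mm10 reference, and the authors deposited counts of UMIs per gene and barcode, not normalized, with barcode and feature names, for 4 RNA samples, and counts of reads and UMIs per contig with V, D, J and C gene names and nucleotide sequences for 2 tumor TCR samples (5′ kit). The V(D)J reference is not given in the sources used here. Contigs were all productive. Members and lists were chosen with earlier results of these data known.

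Analyses used scipy 1.17.1, pandas 2.3.3 and numpy 2.4.6 under Python 3.11.15. Kept barcodes had between 200 and 6000 detected genes, mitochondrial UMIs of 3% or less, no gene over 20% of UMIs, and 1 or more UMIs for each of Cd2, Cd8a and Cd8b1. Doublets were not removed. Named genes were those with at least 5% of cells or clones in a library, the 5 V genes furthest up and the 5 furthest down in share per comparison, the segments of the 5 largest clones, the 3 leading J genes and members at 0. Deviating from this, Trbv20, Trbv23, Trbv24, Trbv30 and Trbv31, clones with a second V, and pairs of V and J were chosen after their values were seen. Intervals are exact, at 95%, and cover counting error only. For a count of 0 a fixed floor of 3 counts was set, which is not the upper end of the exact interval. The limit printed for GACTG in 0 of 90 clones is that exact upper end and not the floor. With 1 library per condition no test was run. The calculations were tested on simulated data. The simulated cells held few UMIs of other V genes, drawn by the V usage of the control LN. Clones with much RNA of a second V, such as control clone 1 with 3.20 UMIs of other V genes per cell, were not simulated. Gene positions are those of RefSeq, GRCm38.p6. Alternatives were other cell filters, call rules, clone definitions, contig filters and pseudocounts.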

Additional observations from a re-analysis of the deposited data

Results flagged for a closer look

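V genes whose share of cells, CD8-IFNgRKO minus control, had 1 sign in the tumor and the other in the LN were singled out where the tumor difference was at least 5 points with separate intervals. Trbv12-1 differed by -20.2 points in the tumors, Trbv16 by -11.8, Trbv13-2 by 16.4 and Trbv13-1 by 7.69. In the LN all 4 had overlapping intervals, and the difference between tissues was not tested. Each rests on 1 to a few clones of 1 library.

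TRB contigs were also present in 1130 barcodes of the control tumor and 1305 of the CD8-IFNgRKO tumor that were left out. Of these, 1096 and 1274 had no UMI of at least 1 of Cd2, Cd8a and Cd8b1, and the median depth of those in the matrix was 2157 and 2750 UMIs. Their V usage lay at a distance of 21.9% and 24.7% from that of the kept cells. In the control tumor 24 of them were absent from the count matrix.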

How the results depend on the processing

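No paired analysis was possible because each condition is 1 library, which also leaves no replicate to leave out. Recomputed values were set against an exact binomial interval around the reported value, or for counts against 1.5 times the reported count. For a distance that interval treats it as a binomial share of the smaller total, which it is not. It is a yardstick there and not the counting error of the distance. Of 78 recomputed distances, agreements and counts, 61 stayed within these limits. Of 384 recomputed shares of single V genes, 312 stayed inside their intervals. Among the counts of Trbv genes past 2-fold, all 16 recomputed values stayed within 1.5 times the reported count, under 4 alternatives.

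With all deposited barcodes, the distance between tumors was 54.0% by UMIs, 52.6% by RNA cells and 51.4% by contig cells, and between LN 2.75% by UMIs and 2.98% by RNA cells. With at least 5 Trbv UMIs the LN distance was 4.35%. Where the top gene held all Trbv UMIs, the tumor distance was 47.8%, and agreement of RNA and contig was 100% in both tumors. In cells thinned to 1600 UMIs these were 52.8%, 96.8% in the control and 98.8% in the CD8-IFNgRKO tumor, and 41 to 701 cells per library were shallower. With contig labels as deposited, an alternative added after seeing the data, agreement was 94.6% and 82.1%. Without the 20 largest clones of each tumor, the distances by contig cells were 26.2% for V and 23.8% for J, and with both chains required, 44.2% for J. These alternatives use other cells, calls or labels, and the cause of each shift was not tested.

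Counting error is all that the intervals cover. The files used here do not tie cells to mice, so that the spread between mice is not in any interval.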

Other observations

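Trbv23 and Trbv30, rare in the LN, were the V of 2 and 0 cells with a contig in the control tumor and 1 and 1 in the CD8-IFNgRKO tumor. Trbv24, the label of no contig, was named as the V of 1 cell in the control LN and 11 in the CD8-IFNgRKO LN from their RNA, and of 0 and 2 in the tumors, although it had 1062 and 592 UMIs there. The pseudogenes Trbv12-3, Trbv22 and Trbv28 had at most 19 UMIs in any library.

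The single-cell clones of the control and CD8-IFNgRKO tumors lay at a distance of 15.4% and 13.9% from the V usage of the LN of their genotype, and clones of more than 1 cell at 33.8% and 26.5%. There were 73 and 67 of the latter, so that counting error is larger for them.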
